A study of Homo sapiens with 12 samples.

Results

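Messenger RNA of the aryl hydrocarbon receptor (AHR) and 7 genes of its pathway was followed in MDA-MB-468, an established human triple-negative breast cancer line, under inhibitors of AKT and EZH2. The 8 genes are AHR, its DNA-binding partner ARNT, the repressors AHRR and TIPARP, the cytochromes P450 CYP1A1 and CYP1B1, and the detoxification enzymes NQO1 and ALDH3A1. They were taken by gene symbol from count tables of 23228 genes. All 8 were found, and all 8 passed the filter on low counts that left 14571 genes for testing. The set was selected on expression changes already seen in the same libraries, so the levels and changes of the 8 genes are given as a description, without a p-value.

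The study held 12 poly(A) RNA libraries in 4 groups of 3, named A, B and C. The ipatasertib group received vehicle from day -5 and 5 µM of this inhibitor of the kinase AKT on day 0. The tazemetostat group received 5 µM of this inhibitor of EZH2, the histone methyltransferase of Polycomb complex PRC2, from day -5. The combination group received both drugs on the same schedule, and the DMSO group received vehicle from day -5. Every group was in medium with 2% serum from day 0 and was collected 24 h later. The 4 groups are cultures of 1 established line, and the labels do not say whether A, B and C were separate cultures, so p-values measure the spread between libraries, which may be technical. The comparisons ask what each inhibitor did alone, what both did together, and whether the joint effect equalled the added single effects on the log2 scale. The 3 comparisons against DMSO share the same DMSO libraries.

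AHR is a ligand-activated transcription factor of the bHLH-PAS family. It waits in the cytoplasm in a chaperone complex that includes HSP90 and the co-chaperone p23 (encoded by PTGES3). Once bound by a ligand, such as a dioxin, a polycyclic aromatic hydrocarbon or a tryptophan metabolite, it enters the nucleus, pairs with ARNT and binds response elements with the core GCGTG. Its best known target is CYP1A1, which oxidises many of the ligands and so helps end the signal, and AHRR and TIPARP are targets that feed back on the receptor. CYP1B1 oxidises oestrogens and aromatic hydrocarbons. NQO1, a quinone reductase, answers to both AHR and the oxidative stress factor NRF2, and ALDH3A1 oxidises aldehydes.

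Promoter sequence is shown because the members with the largest changes are textbook targets of a factor with a known core motif. RefSeq (GRCh38.p14) windows of 250 bases before an annotated start were at hand for 6 of the 8 genes, 9 windows in all. None was at hand for CYP1B1 and ALDH3A1. The letters GCGTG, on either strand, occurred in 4 of the 9 windows, against 32.2% of 35116 windows of the same length. The longer form TNGCGTG, which contains GCGTG, occurred in 1 of the 9 windows, against 4.52%. The antioxidant response core TGACNNNGC occurred in 1, that of ARNT, against 10.9%. The windows below run 5′ to 3′ towards the start, and capitals mark GCGTG or TNGCGTG matches, written as CACGC where the match is on the opposite strand. CYP1A1 is shown because its levels differed most, AHRR because it holds the longer form, TIPARP because it too was highest with the combination, and NQO1 because its window holds none of the 3 motifs.
CYP1A1, chr15:74725529-74725778, minus strand: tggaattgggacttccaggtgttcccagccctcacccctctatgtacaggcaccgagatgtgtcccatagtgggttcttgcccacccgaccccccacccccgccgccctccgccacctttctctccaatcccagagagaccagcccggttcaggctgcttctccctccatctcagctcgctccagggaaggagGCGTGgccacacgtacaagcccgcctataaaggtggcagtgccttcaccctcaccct
AHRR, first of 2 windows, chr5:321464-321713, plus strand: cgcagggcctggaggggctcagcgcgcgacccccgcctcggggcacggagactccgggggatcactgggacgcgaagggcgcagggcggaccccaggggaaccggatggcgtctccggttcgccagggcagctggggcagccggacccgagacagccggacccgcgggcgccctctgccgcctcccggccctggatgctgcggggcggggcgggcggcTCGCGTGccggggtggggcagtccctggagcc
TIPARP, first of 3 windows, chr3:156674340-156674589, plus strand: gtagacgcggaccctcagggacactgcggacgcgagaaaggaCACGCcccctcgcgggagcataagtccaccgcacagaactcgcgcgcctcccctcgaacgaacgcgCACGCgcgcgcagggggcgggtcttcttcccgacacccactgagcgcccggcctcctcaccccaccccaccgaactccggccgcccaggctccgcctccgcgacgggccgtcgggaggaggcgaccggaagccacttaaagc
NQO1, chr16:69726561-69726810, minus strand: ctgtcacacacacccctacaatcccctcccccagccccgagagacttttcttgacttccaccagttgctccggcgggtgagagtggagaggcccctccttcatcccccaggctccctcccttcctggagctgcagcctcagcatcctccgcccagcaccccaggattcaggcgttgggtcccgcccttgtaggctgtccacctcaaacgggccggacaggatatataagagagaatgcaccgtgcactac
In CYP1A1 the match began 57 bases before the start. In AHRR the core began 30 bases before the start, inside TCGCGTG. In TIPARP the opposite-strand matches began 208 and 142 bases before it. A match is a description of these letters and not evidence of binding. Sequence beyond these 250 bases was not searched, so a window without a match does not mean that the gene lacks the motif.

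Gene counts ranged from 12981622 to 28746965 per library, with the combination libraries the shallowest (12981622 to 17948209). In each group the A library stood apart. The chi-square of its counts against B or C was 4.36 to 15.5 per degree of freedom, against 2.41 to 3.62 between B and C. Several values that turn on A are therefore also given without it. All 7 of a list of epithelial and basal line markers were at 5 CPM or more in every group, summing to 6559 to 7304 CPM with the combination, 8217 to 8261 with ipatasertib, 7888 to 8075 with tazemetostat and 8650 to 9285 with DMSO. Of 10 markers of other cell types only CD14 and COL1A1 reached 5 CPM, and the 10 summed to 70.8 to 82.6 CPM with the combination, 82.4 to 103.5 with ipatasertib, 69.4 to 78.8 with tazemetostat and 87.6 to 94.8 with DMSO. At 0 reads were CD3E with the combination, DCN with ipatasertib, and COL1A2 and DCN with DMSO. Whether these marker differences bear on the results was not tested. In bulk RNA, fewer cells that express a gene and less RNA per cell cannot be told apart.

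CYP1A1, the best known AHR target, differed most between the groups among the 8 genes. It measured 14.8, 8.22 and 7.06 CPM (counts scaled to the size of each library, with TMM factors) in the ipatasertib libraries A, B and C, 8.80, 8.55 and 10.2 CPM in the tazemetostat libraries, 34.4, 33.8 and 34.1 CPM in the combination libraries, and 1.56, 2.09 and 1.59 CPM in the DMSO libraries. Every treated library lay above every DMSO library, and every combination library lay above every single-drug library. The means were 10.04 ± 4.2 with ipatasertib, 9.18 ± 0.88 with tazemetostat, 34.1 ± 0.321 with the combination and 1.75 ± 0.296 with DMSO (SD, n = 3 each). These are ratios of 5.75, 5.25 and 19.5 to DMSO. The fitted log2 fold changes against DMSO were 2.54 ± 0.23 for ipatasertib, 2.41 ± 0.23 for tazemetostat and 4.30 ± 0.21 for the combination (approximate SE).

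The ipatasertib A library, at 14.8 CPM, was well above B and C, and without it the ipatasertib log2 fold change was 2.12. Of 14571 tested genes, 41 (0.281%) had a higher log2 fold change than CYP1A1 under ipatasertib, 527 (3.62%) under tazemetostat and 305 (2.09%) under both. Against the single drugs the combination was 3.40-fold above ipatasertib and 3.72-fold above tazemetostat, log2 fold changes of 1.76 ± 0.17 and 1.89 ± 0.17. Without the ipatasertib A library the log2 fold change over ipatasertib was 2.15. CYP1A1 rested on 154 to 341 counts with ipatasertib, 168 to 245 with tazemetostat, 446 to 622 with the combination and 43 to 46 with DMSO. Its close copy CYP1A2 had at most 10 counts in a library.

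**Figure D1:**
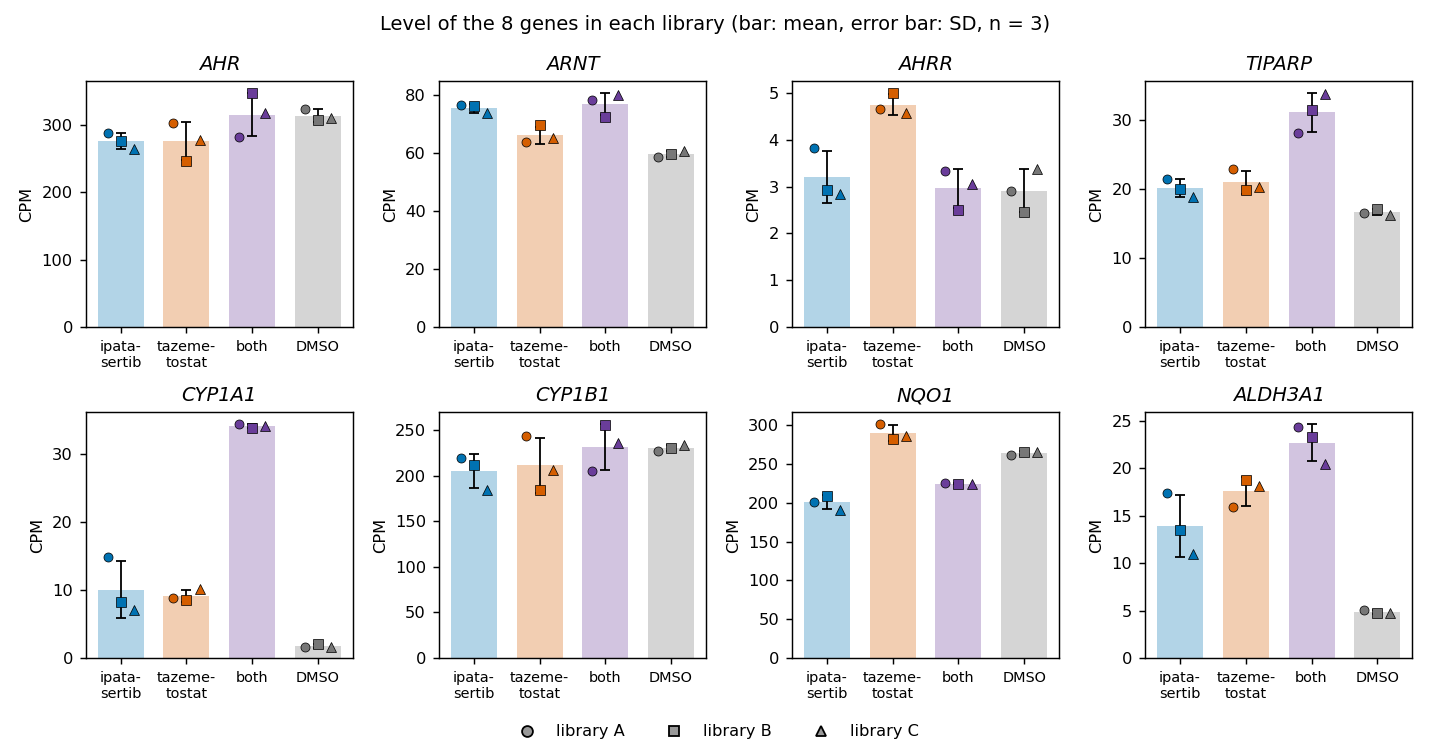
Level of each of the 8 genes in CPM (y axis, from 0) in the ipatasertib, tazemetostat, combination (both) and DMSO libraries; bars are means, error bars SD (n = 3) and points the A, B and C libraries. CYP1A1 sits at 33.8 to 34.4 CPM with both drugs, above all other libraries, while AHR and CYP1B1 differ little between the groups.

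ALDH3A1, an aldehyde dehydrogenase long used as a marker of dioxin response, was also higher in every treated library than in any DMSO library. It measured 17.4, 13.5 and 10.9 CPM in the ipatasertib libraries, 15.9, 18.8 and 18.1 CPM in the tazemetostat libraries, 24.3, 23.3 and 20.5 CPM in the combination libraries, and 5.04, 4.77 and 4.74 CPM in the DMSO libraries. All 3 combination libraries lay above all single-drug libraries, while the ipatasertib and tazemetostat libraries overlapped. The means of 13.9 ± 3.25, 17.6 ± 1.53 and 22.7 ± 2.00 CPM with ipatasertib, tazemetostat and the combination were 2.87, 3.63 and 4.69 times the DMSO mean of 4.85 ± 0.163 CPM (SD, n = 3 each). The log2 fold changes were 1.52 ± 0.14, 1.86 ± 0.14 and 2.23 ± 0.14 in the same order. Without the ipatasertib A library the ipatasertib value was 1.30. The combination differed from ipatasertib by 0.71 ± 0.13 and from tazemetostat by 0.37 ± 0.12 on the log2 scale. Of all tested genes, 1.61%, 4.72% and 5.15% had a higher log2 fold change against DMSO than ALDH3A1 in the 3 comparisons.

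TIPARP, a mono-ADP-ribosyltransferase that modifies AHR and represses its activity, was higher by a smaller amount. It measured 21.5, 20.1 and 18.8 CPM in the ipatasertib libraries, 22.9, 19.8 and 20.2 CPM in the tazemetostat libraries, 28.1, 31.4 and 33.8 CPM in the combination libraries, and 16.6, 17.1 and 16.3 CPM in the DMSO libraries. As with CYP1A1, the single-drug libraries overlapped each other, all lay above DMSO and all lay below the combination. The log2 fold changes against DMSO were 0.27 ± 0.091 for ipatasertib, 0.33 ± 0.09 for tazemetostat and 0.90 ± 0.09 for the combination. The combination differed from ipatasertib by 0.63 and from tazemetostat by 0.57 on the log2 scale.

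AHRR, which competes with AHR for ARNT, followed another order. It measured 3.83, 2.93 and 2.84 CPM in the ipatasertib libraries, 4.66, 5.00 and 4.57 CPM in the tazemetostat libraries, 3.32, 2.50 and 3.06 CPM in the combination libraries, and 2.91, 2.45 and 3.37 CPM in the DMSO libraries. The tazemetostat libraries lay above all others, and the other groups overlapped each other. The log2 fold change was 0.70 ± 0.15 for tazemetostat against DMSO, 0.13 ± 0.16 for ipatasertib and 0.03 ± 0.18 for the combination. Without the ipatasertib A library the ipatasertib value was -0.04. The combination was lower than tazemetostat alone by a log2 fold change of -0.67 ± 0.17. AHRR rested on 33 to 134 counts per library. Overlapping or readthrough transcripts at its locus could share its reads.

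Levels of the receptor AHR itself differed little between the groups. It measured 288, 275 and 263 CPM in the ipatasertib libraries, 303, 246 and 277 CPM in the tazemetostat libraries, 281, 346 and 317 CPM in the combination libraries, and 324, 306 and 310 CPM in the DMSO libraries. The ipatasertib and tazemetostat libraries all lay below DMSO, and the combination libraries lay on both sides of DMSO. The log2 fold changes were -0.19 ± 0.079 for ipatasertib, -0.19 ± 0.079 for tazemetostat and 0.01 ± 0.079 for the combination. The last value changed sign with RLE size factors, DESeq2 and no filter. Without the tazemetostat A library the tazemetostat value of AHR was -0.27. Its partner ARNT measured 76.5, 76.1 and 73.6 CPM in the ipatasertib libraries, 63.8, 69.5 and 65.2 CPM in the tazemetostat libraries, 78.3, 72.5 and 79.8 CPM in the combination libraries, and 58.5, 59.6 and 60.5 CPM in the DMSO libraries. All treated libraries lay above DMSO, with log2 fold changes of 0.34 ± 0.066, 0.15 ± 0.066 and 0.37 ± 0.067 for ipatasertib, tazemetostat and the combination.

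CYP1B1, an AHR target in other settings, did not follow CYP1A1. It measured 220, 212 and 185 CPM in the ipatasertib libraries, 244, 184 and 207 CPM in the tazemetostat libraries, 205, 255 and 236 CPM in the combination libraries, and 228, 230 and 234 CPM in the DMSO libraries. The ipatasertib libraries all lay below DMSO, and the other treated groups overlapped DMSO. The log2 fold changes were -0.17 ± 0.091, -0.13 ± 0.091 and 0.01 ± 0.092 for ipatasertib, tazemetostat and the combination, and the last changed sign in the same alternatives as that of AHR. Without the A libraries the ipatasertib value was -0.23 and the tazemetostat value -0.25, and both were then called lower. Leaving out tazemetostat A alone also gave -0.25 and a call with tazemetostat. Both AHR and CYP1B1 were lowest in the B library of the tazemetostat group and highest in the B library of the combination group.

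NQO1, the quinone reductase, was lower with ipatasertib and higher with tazemetostat than with DMSO. It measured 201, 209 and 191 CPM in the ipatasertib libraries, 302, 282 and 286 CPM in the tazemetostat libraries, 225, 224 and 224 CPM in the combination libraries, and 261, 265 and 266 CPM in the DMSO libraries. No library of one group overlapped another, in the order tazemetostat, DMSO, combination and ipatasertib from high to low. The log2 fold changes were -0.40 ± 0.06 for ipatasertib, 0.14 ± 0.06 for tazemetostat and -0.23 ± 0.06 for the combination. The combination was 0.16 above ipatasertib and -0.37 relative to tazemetostat on the log2 scale.

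**Figure D2:**
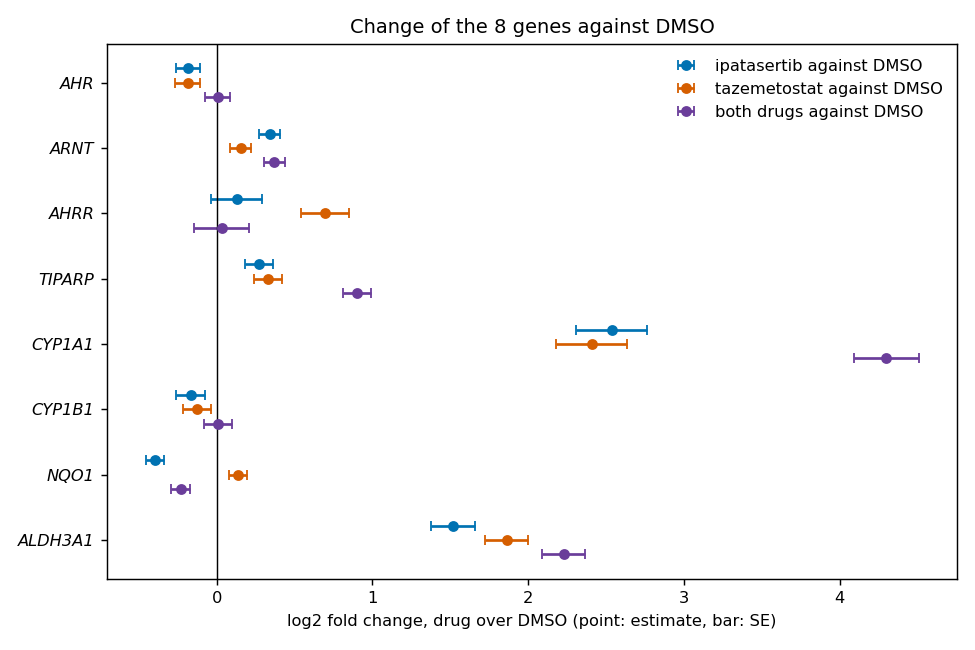
Log2 fold change over DMSO (x axis; points are edgeR estimates, bars approximate SE) of each gene for ipatasertib, tazemetostat and both drugs. CYP1A1 reaches 2.54, 2.41 and 4.30 and ALDH3A1 1.52, 1.86 and 2.23, while the other 6 genes stay between -0.40 and 0.90.

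Counted by edgeR's quasi-likelihood test at an adjusted p under 0.05 over all genes, ipatasertib against DMSO called 4 members higher (ARNT, CYP1A1, TIPARP and ALDH3A1) and 1 lower (NQO1). In that comparison 47.1% of all tested genes were called, 24.0% higher and 23.1% lower. The TIPARP call was lost without the ipatasertib A or the DMSO C library. Without the A libraries 3 members were lower (AHR, CYP1B1 and NQO1), and DESeq2 called 2 lower (AHR and NQO1). With no filter and with the groups of the comparison alone, AHR and CYP1B1 were both called lower too. So they were without tazemetostat A. The AHR call was also made without ipatasertib A, tazemetostat B, combination A or combination B. Tazemetostat against DMSO called 4 members higher (AHRR, CYP1A1, TIPARP and ALDH3A1) and 0 lower, where 47.2% of all genes were called, 25.9% higher and 21.3% lower. At an unadjusted p under 0.05 there were 6 higher members and 1 lower, and DESeq2 called 5 higher and 1 lower, AHR. AHR was also called lower with RLE size factors, with no filter, with the groups of the comparison alone and without some single libraries. Library totals and the filter of 50 counts each called 6 higher, with ARNT and NQO1 added. Without scaling factors, 67.9% of the genes called with tazemetostat were higher, against 54.9% with TMM. Without the A libraries, 7 members were called with tazemetostat, 5 higher and 2 lower. The combination against DMSO called 4 members higher (ARNT, CYP1A1, TIPARP and ALDH3A1) and 1 lower (NQO1), where 64.4% of all genes were called, 34.4% higher and 30.0% lower.

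Against ipatasertib alone, the combination called CYP1A1, TIPARP, NQO1 and ALDH3A1 higher, 4 of 8, and 0 lower, where 44.9% of all genes were called, 24.2% higher and 20.7% lower. No member was lower at an unadjusted p under 0.05 (0) or by DESeq2 (0). Against tazemetostat alone it called 4 higher (ARNT, CYP1A1, TIPARP and ALDH3A1) and 2 lower (AHRR and NQO1), where 46.3% of all genes were called, 23.2% higher and 23.1% lower. CYP1A1 and TIPARP kept both calls under every alternative run. The members were chosen on changes in these libraries, so calls that hold in refits of them are not independent support. The ALDH3A1 call against tazemetostat was lost without the tazemetostat A, combination A or combination B library, and that of ARNT without the tazemetostat C or combination C library. The NQO1 call against ipatasertib was lost in 7 of the 12 fits that left out 1 library (DMSO B or C, ipatasertib A or C, tazemetostat C, combination B or C). It was also lost with no filter, with the groups of the comparison alone and with the replicate block. At a threshold of 0.01 it was lost too, as were the ARNT and ALDH3A1 calls against tazemetostat. Without the A libraries, 6 members were called higher against ipatasertib and 6 against tazemetostat, AHR and CYP1B1 among them in both, and NQO1 kept its call against ipatasertib.

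On the log2 scale, the combined change was set against the sum of the single-drug changes. The interaction was called for 3 members, AHR higher (1) and AHRR and ALDH3A1 lower (2) than the sum, where 5.96% of all genes were called higher and 6.01% lower. Without scaling factors 33.6% of the called interactions were higher, against 49.8% with TMM. For ALDH3A1 the interaction was -1.15 ± 0.19: the single-drug ratios multiplied would put it at 50.5 CPM, and it measured 22.7 CPM with the combination, 44.9% of that. Without the ipatasertib A library this interaction was -0.95. AHRR measured 2.96 CPM, 56.8% of the product of 5.22 CPM (interaction -0.80 ± 0.24). AHR stood at 315 CPM, 130% of the product of 242 CPM (0.38 ± 0.11). Only the ALDH3A1 call held in all 12 fits that left out 1 library. That of AHRR was lost in 7 of them (DMSO A or B, ipatasertib A, tazemetostat B or C, combination B or C), and that of AHR in 8 (DMSO A, B or C, ipatasertib C, tazemetostat B or C, combination B or C). The AHR call was also lost with library totals and with the replicate block.

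CYP1A1, the member with the highest combined level relative to DMSO, stood at 64.7% of its product of 52.7 CPM (-0.64 ± 0.29). This interaction was not called, and without the ipatasertib A library it was -0.23. It was called with no filter and without the ipatasertib C library (-0.86). TIPARP stood at 122.6% of its product (0.29 ± 0.13), CYP1B1 at 123.2% (0.30 ± 0.13), NQO1 at 102% (0.03 ± 0.085) and ARNT at 91.8% (-0.12 ± 0.094). None of these 4 interactions was called in the fit on all libraries. Without the A libraries, those of TIPARP (0.48) and CYP1B1 (0.56) were called higher, as they were without tazemetostat A or combination A alone. Interaction calls over all genes also rose, from 1744 in the fit on all libraries to 5452 without the A libraries. They were 3681 without tazemetostat A.

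**Figure D3:**
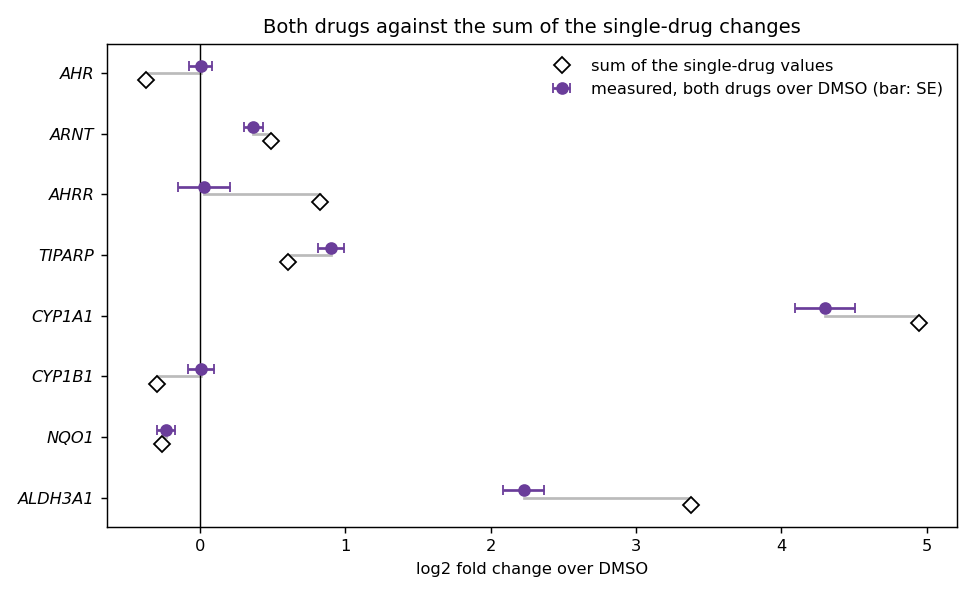
Measured log2 fold change of both drugs over DMSO (filled points, bars approximate SE) beside the sum of the single-drug log2 fold changes (open diamonds) for each gene. ALDH3A1 lies 1.15 and AHRR 0.80 below the sum, and NQO1 lies at it.

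The gene lists described from here on were also chosen with earlier results of these data known. Their genes were named by size of change, so their adjusted p-values come after selection and are not independent support. The rest of the AHR complex did not move as 1 group. Of 11 genes of the complex and its coregulators, all tested, 4 rose and 2 fell with ipatasertib, 5 rose and 3 fell with tazemetostat, and 6 rose and 3 fell with the combination. That is 54.5%, 72.7% and 81.8% called, beside 47.1%, 47.2% and 64.4% of all tested genes. The median log2 fold changes were 0.21, 0.16 and 0.24, against 0.004, 0.009 and 0.03 over all genes. PTGES3, the p23 co-chaperone, fell in all 3 comparisons: it averaged 358 ± 12.1 CPM with ipatasertib, 372 ± 39.5 with tazemetostat, 341 ± 28.5 with the combination and 493 ± 17.8 with DMSO (SD, n = 3 each). Its log2 fold changes were -0.46, -0.41 and -0.53 (edgeR adjusted p 3.14e-05, 0.000124 and 2.38e-06). HSP90AA1, a cytosolic HSP90 that holds the unliganded receptor, fell by 0.58 with ipatasertib, by 0.37 with tazemetostat and by 0.41 with the combination on the log2 scale (edgeR adjusted p 2.13e-05, 0.0018 and 0.000483). HSP90 genes and PTGES3 have processed pseudogenes that could take part of their reads.

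ARNT2, a paralog of ARNT that also pairs with AHR, was chosen after its values were seen. It had 1 read in the 3 DMSO libraries together and 4 in the ipatasertib libraries, against 133 in the tazemetostat libraries and 114 in the combination libraries. The ratio to DMSO was 147 for tazemetostat (95% counting interval 25.9 to 5840) and 193 for the combination (34 to 7690). At 1.85 ± 0.432 CPM with tazemetostat and 2.53 ± 0.233 CPM with the combination (SD, n = 3 each), it stayed a low-count gene.

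Among 15 other AHR target genes, 8 were tested. Of these, 2 rose and 2 fell with ipatasertib, and 5 rose and 0 fell with tazemetostat. At an unadjusted p under 0.05, 1 fell with tazemetostat, and DESeq2 called 0. With the combination 4 rose and 1 fell, and against ipatasertib alone 6 of the 8 rose with the combination and 0 fell, by DESeq2 and at an unadjusted p under 0.05 also 0. Called against DMSO were 50%, 62.5% and 62.5% of the 8 with ipatasertib, tazemetostat and the combination, beside 47.1%, 47.2% and 64.4% of all genes. Against ipatasertib alone 75% were called with the combination, beside 44.9% of all genes. The median log2 fold changes against DMSO were -0.12, 0.46 and 0.35 for ipatasertib, tazemetostat and the combination. Without scaling factors, 5 rose and 0 fell with the combination. CYP1A2, UGT1A1, UGT1A6, ABCG2, EREG, PTGS2 and IL1B were below the filter, with at most 16 counts in a library.

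NEDD9, a scaffold protein of focal adhesions, was, like CYP1A1, highest with the combination. It measured 32.4, 28.8 and 25.6 CPM in the ipatasertib libraries, 16.8, 18.4 and 17.8 CPM in the tazemetostat libraries, 46.1, 48.7 and 48.2 CPM in the combination libraries, and 11.03, 11.2 and 10.5 CPM in the DMSO libraries. No group overlapped another. Its log2 fold changes were 1.41 ± 0.091, 0.70 ± 0.094 and 2.13 ± 0.091 (edgeR adjusted p 8.25e-11, 2.88e-06 and 1.05e-14). CYP2S1, an AHR-regulated cytochrome P450 of epithelia, averaged 17.5 ± 0.264 CPM with ipatasertib, 26.7 ± 1.63 with tazemetostat, 34.3 ± 3.35 with the combination and 13.7 ± 0.95 with DMSO. It rose in all 3 comparisons, by 0.34, 0.96 and 1.32 on the log2 scale (edgeR adjusted p 0.00391, 1.13e-08 and 2.73e-11). For both genes the interaction was near 0, at 0.02 ± 0.13 (edgeR adjusted p 0.924 for NEDD9 and 0.939 for CYP2S1).

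NFE2L2, which encodes NRF2 and is itself an AHR target, rose with tazemetostat (0.36, edgeR adjusted p 0.000548) and with the combination (0.34, edgeR adjusted p 0.000449). SLC7A5, a carrier of tryptophan and other large amino acids, fell with ipatasertib (-0.34, edgeR adjusted p 0.00126) and with the combination (-0.22, edgeR adjusted p 0.0204). The call with the combination was lost with library totals and without the DMSO C, combination B or combination C library.

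**Figure D4:**
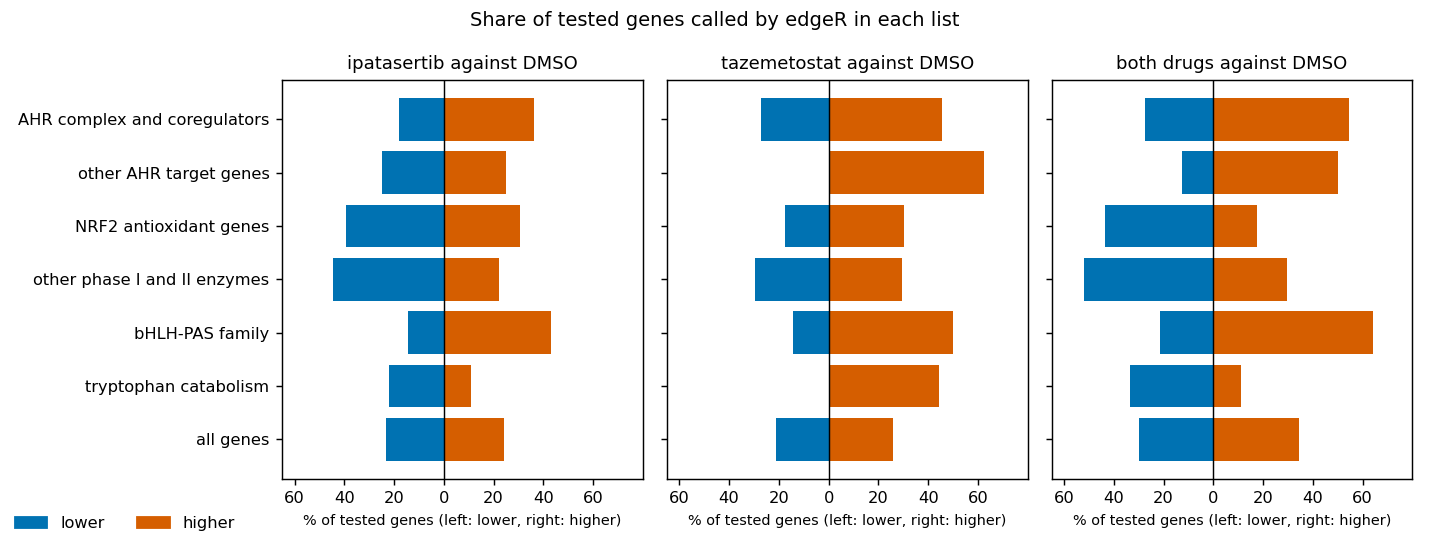
Share of tested genes (x axis, percent) called lower (left) and higher (right) by edgeR in 6 gene lists and over all genes, for ipatasertib, tazemetostat and both drugs against DMSO. With tazemetostat, 5 of 8 other AHR target genes and 4 of 9 tryptophan genes were called higher and none of either lower. Over all genes 25.9% were called higher and 21.3% lower. For the tryptophan genes 44.4% were called, beside 47.2% of all genes, and DESeq2 called 3 higher and 1 lower.

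The NRF2 list, the other programme to which NQO1 belongs, was split. Of 23 genes, all tested, 7 rose and 9 fell with ipatasertib, 7 rose and 4 fell with tazemetostat, and 4 rose and 10 fell with the combination. The shares called were 69.6%, 47.8% and 60.9%, beside 47.1%, 47.2% and 64.4% of all genes. The median log2 fold changes were -0.12, 0.02 and -0.13. Without scaling factors, 8 rose and 2 fell with tazemetostat and 6 rose and 8 fell with the combination. HMOX1, haem oxygenase, had the same directions as NQO1 under the single drugs: it averaged 8.17 ± 0.253 CPM with ipatasertib, 24.1 ± 1.32 with tazemetostat, 16.4 ± 1.46 with the combination and 14.7 ± 0.373 with DMSO. It fell with ipatasertib (-0.84, edgeR adjusted p 2.5e-07) and rose with tazemetostat (0.72, edgeR adjusted p 4.37e-07), and its combination value was 0.16 (edgeR adjusted p 0.126). ME1, the cytosolic malic enzyme, fell to 29.9 ± 1.53 CPM with ipatasertib and 42.2 ± 3.47 with the combination, against 55.2 ± 2.09 with DMSO. Its log2 fold changes were -0.89 and -0.39 (edgeR adjusted p 4.63e-08 and 0.000533). With tazemetostat it measured 74.8, 60.1 and 60.9 CPM, a log2 fold change of 0.24 (edgeR adjusted p 0.0239) with the A library above B and C.

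The genes that rose with both drugs included the ferritin chains, which store iron. FTL averaged 326 ± 17.1 CPM with ipatasertib, 208 ± 8.19 with tazemetostat, 355 ± 40.1 with the combination and 156 ± 4.39 with DMSO, log2 fold changes of 1.06, 0.41 and 1.18 (edgeR adjusted p 2.38e-10, 0.0001 and 7.19e-12). FTH1 averaged 4205 ± 86, 6530 ± 522, 7629 ± 410 and 3708 ± 94 CPM in the same groups, log2 fold changes of 0.18, 0.82 and 1.04 (edgeR adjusted p 0.0232, 8.12e-10 and 5.47e-12). Of the single drugs, FTL had the larger value with ipatasertib and FTH1 with tazemetostat, and the difference between the drugs was not tested. AKR1B10, an aldo-keto reductase, fell by 0.95 with ipatasertib and by 1.18 with the combination on the log2 scale (edgeR adjusted p 3.8e-07 and 1.49e-08). Both ferritin genes and the aldo-keto reductases have near-identical copies, so their counts are uncertain.

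Of 27 other phase I and II enzymes, all tested, 6 rose and 12 fell with ipatasertib, 8 rose and 8 fell with tazemetostat, and 8 rose and 14 fell with the combination. That is 66.7%, 59.3% and 81.5% called, beside 47.1%, 47.2% and 64.4% of all genes. The medians were -0.13, -0.03 and -0.21. Without scaling factors, 11 rose and 5 fell with tazemetostat, and without the A libraries 7 rose and 12 fell. Relatives of ALDH3A1 differed. ALDH1A3, which makes retinoic acid from retinal, averaged 1243 ± 95.9 CPM with ipatasertib, 874 ± 36.2 with tazemetostat, 1885 ± 78.2 with the combination and 635 ± 8.55 with DMSO. It rose in all 3 comparisons, by 0.97, 0.46 and 1.57 (edgeR adjusted p 1.29e-10, 4.91e-06 and 6.87e-15). ALDH3B1 rose by 1.40, 0.32 and 1.44 under ipatasertib, tazemetostat and both (edgeR adjusted p 2.08e-11, 0.00503 and 2.77e-12). ALDH1A1 fell by 0.91 with ipatasertib and by 0.94 with the combination (edgeR adjusted p 2.11e-08 and 3.93e-09), and its tazemetostat value was 0.14 (edgeR adjusted p 0.186). GSTM3, a glutathione transferase, rose to 184 ± 5.16 CPM with the combination, against 80.2 ± 2.54 with DMSO (1.20, edgeR adjusted p 2.91e-13). SULT2B1, a cholesterol sulfotransferase, fell to 17.9 ± 1.29 CPM with the combination, against 54.6 ± 3.94 with DMSO (-1.60, edgeR adjusted p 3.14e-13).

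**Figure D5:**
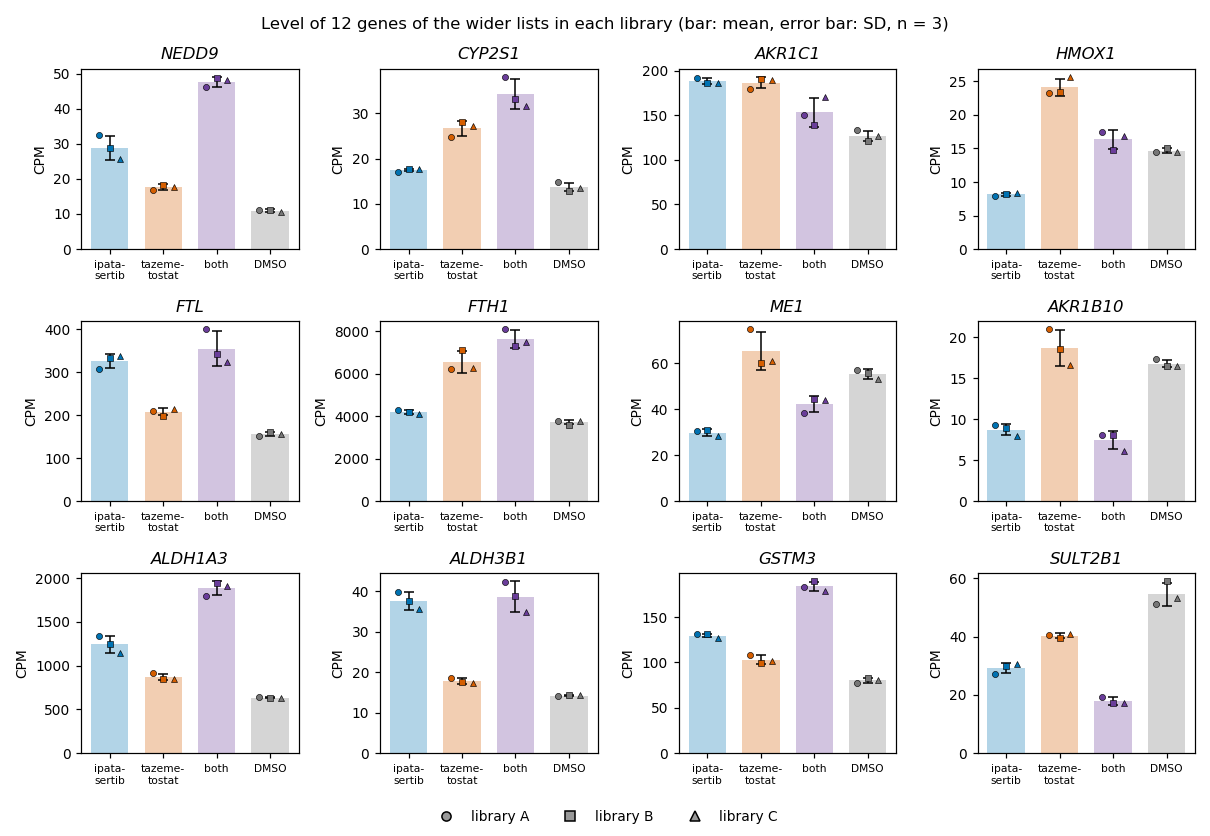
Level in CPM (y axis, from 0) of 12 genes from the wider lists in the ipatasertib, tazemetostat, combination (both) and DMSO libraries; bars are means, error bars SD (n = 3) and points the A, B and C libraries. NEDD9 and ALDH1A3 are highest with both drugs, and HMOX1 and ME1 are lower with ipatasertib and higher with tazemetostat than with DMSO.

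Of 16 other bHLH-PAS genes, 14 were tested, and 6 rose and 2 fell with ipatasertib, 7 rose and 2 fell with tazemetostat, and 9 rose and 3 fell with the combination, with medians of 0.48, 0.28 and 0.37. The shares called were 57.1%, 64.3% and 85.7%, beside 47.1%, 47.2% and 64.4% of all genes. Without scaling factors 9 rose and 1 fell with tazemetostat. ARNT2 is counted here and in the AHR complex. NPAS2, a partner of the clock factor ARNTL, averaged 20.7 ± 1.27 CPM with ipatasertib, 16.0 ± 1.25 with tazemetostat, 36.7 ± 2.94 with the combination and 10.4 ± 0.516 with DMSO. It rose by 0.99, 0.62 and 1.82 (edgeR adjusted p 2.26e-08, 1.41e-05 and 1.88e-13). Of the hypoxia factors that also pair with ARNT, EPAS1 rose by 0.65 with tazemetostat (edgeR adjusted p 8.35e-08). HIF1A fell by 0.44 with ipatasertib (edgeR adjusted p 0.000115). These values come from different comparisons, and a difference between the genes was not tested.

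Of 13 genes of tryptophan catabolism, a source of AHR ligands, 9 were tested. The first-step enzymes IDO1, IDO2 and TDO2 and the serotonin enzyme TPH1 were below the filter, with at most 5 counts in a library. With ipatasertib 1 rose and 2 fell, with tazemetostat 4 rose and 0 fell, and with the combination 1 rose and 3 fell, with medians of -0.08, 0.18 and -0.02. The shares called, 33.3%, 44.4% and 44.4%, were below the 47.1%, 47.2% and 64.4% of all genes. With tazemetostat 1 fell at an unadjusted p under 0.05 and 1 by DESeq2, and without scaling factors 1 rose and 1 fell with the combination. KMO, which hydroxylates kynurenine, rose with tazemetostat (0.63, edgeR adjusted p 9.58e-06) and with the combination (0.81, edgeR adjusted p 1.53e-07). AADAT, which turns kynurenine into kynurenic acid, fell with ipatasertib (-1.14, edgeR adjusted p 5.29e-07) and with the combination (-0.79, edgeR adjusted p 3.3e-05).

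Likeness to the members was measured as the root mean square difference of the 3 log2 fold changes against DMSO, over 11408 candidate genes, and is a description. Nearest to CYP1A1 were DFNA5 (0.305) and HSD17B11 (0.319), and nearest to ALDH3A1 were INPP4B (0.288) and PDGFRA (0.289). Nearest to TIPARP were ACPL2 (0.0385) and FOXC1 (0.0407), and nearest to AHRR were CHRM1 (0.0633) and NCALD (0.0669). TIPARP and AHRR changed less than CYP1A1 and ALDH3A1. The difference is not scaled to the size of the change, so it cannot be ranked between members.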

How the data were processed

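Counts of the 12 libraries were used. Per the labels, RNeasy Plus served for RNA and Kapa Hyper Prep for the poly(A) libraries. Raw counts per gene symbol were deposited. STAR, SAMtools, HTSeq, DESeq2 and hg19 appear without versions among the submitters' processing notes. Neither annotation nor strand setting is stated there, so reads of antisense partners cannot be told apart. A deposited normalized table was not used. The 32.0% to 39.5% of each counted total that names no gene was left out.

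From the counts, edgeR 4.0.16 in R 4.3.3 (filterByExpr with a minimum count of 10, TMM, 1 robust quasi-likelihood fit over the 12 libraries, 8 residual degrees of freedom) tested 14571 genes in 6 comparisons, with Benjamini-Hochberg adjustment over all of them and a threshold of 0.05. The SE of a log2 fold change is its size over the root of F. A depth of 3 counts corresponds to 0.106 to 0.227 CPM, and counting intervals and floors cover counting error only. The procedure was also run on simulated counts with the same spread for every gene and changes in the ipatasertib group alone. That setting is simpler than these data, so it checks the code and not the calls made here.

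The members and lists were chosen with earlier results of these data known. From each list and comparison, up to 4 genes with an adjusted p under 0.05 and at least 5 CPM in the highest group could be named, by size of change, and a part is printed. Some genes of the lists are counted but not reported here by name. Not every named gene is described in every comparison, so a value that is not printed does not mean no change. Likeness was given for members that changed by at least 0.5. Other settings tried were DESeq2 1.42.0, RLE size factors, unscaled library totals, a filter of 50 counts in 3 libraries or none, separate fits per comparison, a replicate block, leaving out each library or all A libraries, and a threshold of 0.01.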

Additional observations from a re-analysis of the deposited data

Results flagged for a closer look

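For 7 named genes of the wider lists the effect of ipatasertib differed between cells with and without tazemetostat, by edgeR's interaction test. Over the 6 lists, 4 of 91 tested genes had an interaction called higher and 4 called lower. That is 8.79%, beside 12% of all tested genes. The ipatasertib effect on AKR1C1, an aldo-keto reductase, was -0.28 on the log2 scale with tazemetostat and 0.57 without it, a difference of -0.85 (edgeR adjusted p 3.83e-05). HSP90AA1 differed by 0.54 (edgeR adjusted p 0.011), with values of -0.03 with tazemetostat and -0.58 without it. NCOA2, a coactivator, differed by -0.48 (edgeR adjusted p 0.0258), with values of 0.23 and 0.71. STC2, a secreted glycoprotein, differed by 0.47 (edgeR adjusted p 0.0233), with values of 0.17 and -0.30. TPMT, a thiopurine methyltransferase, differed by 0.40 (edgeR adjusted p 0.0293), with values of -0.44 and -0.84. PTGES3 differed by 0.34 (edgeR adjusted p 0.0413), with values of -0.12 and -0.46. EPHX1, an epoxide hydrolase, differed by -0.31 (edgeR adjusted p 0.0373), with values of -0.38 and -0.07. Where a pair of values is given, the one with tazemetostat comes from the combination against tazemetostat and the other from ipatasertib against DMSO. The AKR1C1 call held in each alternative run. At a threshold of 0.01 the other 6 calls were lost. With 1 of the 12 libraries left out at a time, HSP90AA1 kept its call in every fit, while the call was lost in 3 fits for STC2, 5 for NCOA2, 8 for TPMT, 9 for PTGES3 and 9 for EPHX1. The replicate block also ended the calls of TPMT, PTGES3 and EPHX1, and library totals that of PTGES3.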

How the results depend on the processing

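For ipatasertib, tazemetostat and the combination against DMSO, the calls of CYP1A1 and ALDH3A1 held in every alternative run. Each run used the libraries on which the members were chosen, so this is not independent support. Counts of called genes that moved by over 1.5 times are given with the count as reported in parentheses, and their cause was not tested unless fewer samples or a stricter threshold made it. At an adjusted p under 0.01, interaction calls were 397 over all genes (1744), 1 of the members (3), 0 of the AHR complex (3), 1 of the NRF2 list (2), 0 of the other AHR targets (1) and 0 of the phase I and II enzymes (2). NRF2 genes with tazemetostat were 7 (11). Tryptophan genes were 1 with tazemetostat (4), 2 with the combination against DMSO (4), 2 against ipatasertib (4) and 3 against tazemetostat (6). DESeq2 and library totals each called 4 NRF2 interactions (2), and library totals called 2 tryptophan genes for the combination against DMSO (4). With no filter, interaction calls were 5 of the members (3) and 3 of the tryptophan genes (0), and the combination against DMSO called 9 other AHR targets (5).

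Without the A library of every group, interaction calls were 5452 over all genes (1744), 5 of the members (3), 7 of the AHR complex (3), 9 of the NRF2 list (2), 8 of the phase I and II enzymes (2), 4 of the tryptophan genes (0) and 1 of the bHLH-PAS genes (0). Tazemetostat then called 7 members (4), the combination against tazemetostat 6 genes of the AHR complex (3), and the combination against ipatasertib 7 tryptophan genes (4). With 1 library left out at a time, interaction calls ranged from 674 to 3681 over all genes, from 1 to 5 of the members, from 1 to 5 of the AHR complex, from 0 to 1 of the other AHR targets, from 1 to 5 of the NRF2 list, from 0 to 5 of the phase I and II enzymes and from 0 to 3 of the tryptophan genes. NRF2 genes with tazemetostat ranged from 7 to 12, tryptophan genes from 2 to 5 with tazemetostat, with the combination against DMSO and against ipatasertib, and other AHR targets from 3 to 6 for the combination against ipatasertib.

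The letters A, B and C were not taken as pairing the libraries. Over all tested genes, 1 of 3 pairs sharing a letter between ipatasertib and DMSO deviated together above a correlation of 0.1, and over genes with a mean of at least 5 CPM 3 of 3 did, of which 1 matched its own letter best. With the replicate block, interaction calls were 1012 over all genes (1744), 1 of the NRF2 list (2) and 0 of the phase I and II enzymes (2). The member calls against DMSO were the same, 3 members were called for the combination against ipatasertib (4) and 2 for the interaction (3). The combination libraries are the shallowest, which limits low-count genes such as AHRR.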
